A study of Mus musculus with 26 samples.

Results

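The ADAM and ADAMTS genes were chosen by symbol from the count tables, as every gene named Adam or Adamts with a number or an ADAMTS-like name, plus *Adamdec1*. The rule found 57 genes among 23337. They comprised 33 ADAM genes (with *Adamdec1*), 19 ADAMTS genes and 5 ADAMTS-like genes, and were sorted by known role into 12 lists. The rule reads symbols only, and values are given for the members named here, with the rest covered by counts.

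RNA was sequenced from whole initial segment (IS), caput and testis of male mice of a C57Bl/6N; 129 hybrid strain aged 3 months. ArKI mice carry a knock-in of the X-linked androgen receptor gene in which the SUMO acceptor lysines were replaced by arginines, and WT mice carry the unchanged allele. The knock-in was made in embryonic stem cells and acts in every cell that uses the receptor, and ArKI males are infertile with changed epididymal histology. There were 5 WT and 5 ArKI samples of the IS, 5 and 5 of the caput, and 3 and 3 of the testis. The testis was sequenced in another batch than both epididymal segments, so tissue and batch cannot be told apart.

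ADAM proteins are membrane-anchored proteins with a metalloprotease-like and a disintegrin domain. Some are active sheddases that release growth factors, cytokines and adhesion proteins from the cell surface, whereas others have lost the catalytic site and act in adhesion. The mouse genome holds a large group of ADAMs used by male germ cells, several of which sit on the sperm surface as processed complexes and are matured while sperm pass through the epididymis. ADAMTS proteins are secreted proteases of the extracellular matrix, and ADAMTS-like proteins share their accessory domains without the protease.

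Depth ranged from 5829074 to 9770625 counts per IS sample, from 4125768 to 11913469 per caput sample and from 14077013 to 21376604 per testis sample, with ArKI replicate 2 the shallowest caput sample. The 57 genes took 2.12–2.21% of counts in the WT IS, 2.80–2.98% in the ArKI IS and 0.512–0.562% in the testis. The tissue labels were checked against markers. The summed level of 6 meiotic germ-cell markers was 1610–1670 CPM (counts scaled to a common library size, with TMM factors) in the WT testis, 13.8–23.2 CPM in the WT IS and 4.23–6.82 CPM in the WT caput. The summed level of 7 markers of IS principal cells was 41800–45700 CPM in the WT IS. In the caput the same sum was 1990–6730 CPM in WT and 1940–4430 CPM in ArKI samples, so the caput samples differed in how much IS marker RNA they held. In whole tissue, fewer cells of a type and less RNA per cell cannot be told apart. The study's methods state that the IS and caput came from 5 ArKI and 5 WT mice and the testes from 3 and 3, so both segments were taken from the same mice, and whether a replicate number marks a mouse is not given in the sources used here.

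In WT tissues, an epididymal and a testicular group stood out among the ADAM genes. *Adam7*, whose protein is secreted by epididymal principal cells and taken up by sperm, was by far the highest member in the epididymis. Its level per exon length was 3331 ± 65.2 RPKM (reads per kilobase of exon and per total mapped reads in units of 1e+06; SD, n = 5) in the IS and 3076 ± 252 RPKM in the caput, where it ranked 14 and 10 among 22844 genes. In the WT testis it was 0.525 ± 0.130 RPKM (n = 3). *Adam28*, a catalytically active ADAM, was the second highest member in the IS at 533 ± 32.5 RPKM, and it was 11.7 ± 11.1 RPKM in the caput. *Adamdec1*, a soluble decysin best known from macrophages and gut stroma, reached 18.4 ± 1.74 RPKM in the IS and 1.03 ± 0.615 RPKM in the caput. These genes are neighbours on the minus strand of chromosome 14 in GRCm38, with *Adam7* at 68497336 to 68533741, *Adamdec1* at 68563380 to 68582095 and *Adam28* at 68606027 to 68655842.

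**Figure D1:**
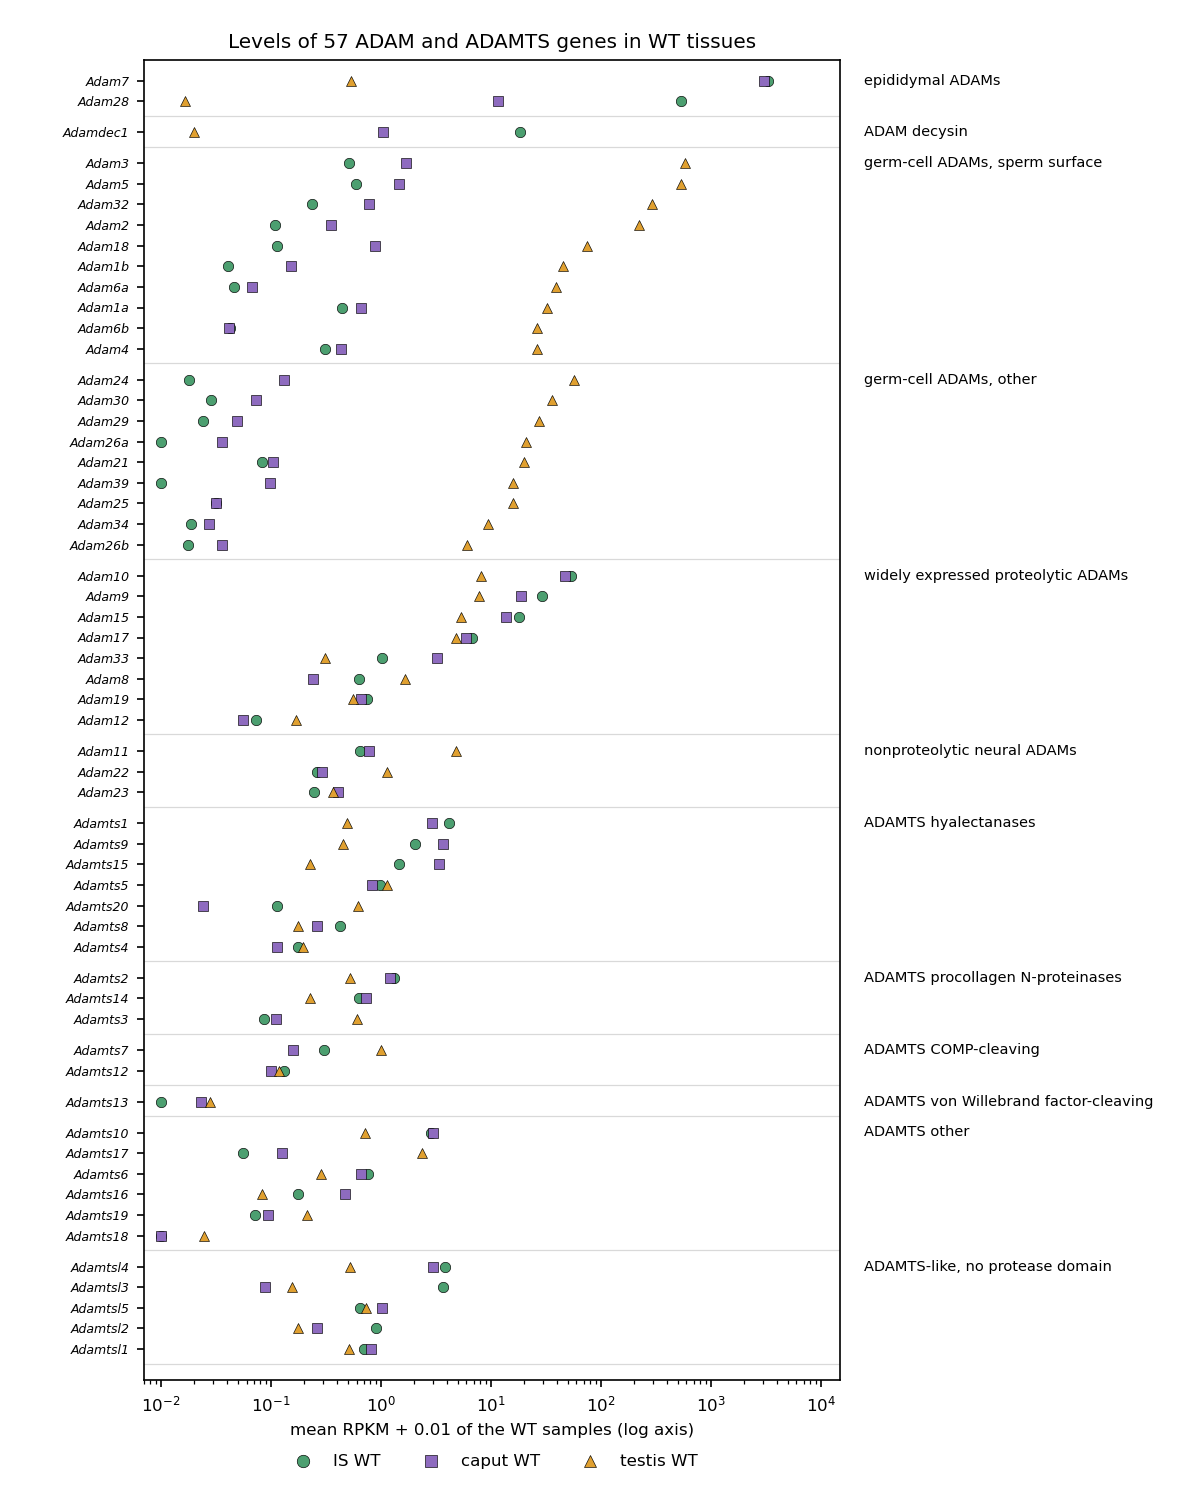
Mean RPKM plus 0.01 of 57 ADAM and ADAMTS genes in WT samples on a log axis, by role, with circles for the IS (n = 5), squares for the caput (n = 5) and triangles for the testis (n = 3). *Adam7* lies highest at 3331 RPKM in the IS, and the 19 germ-cell ADAMs have their highest level in the testis.

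The germ-cell ADAMs showed the opposite placement. Their levels were high in the WT testis and low in the WT epididymis. *Adam26a*, for example, had 0 counts over the 5 WT IS samples and 3 over the 5 WT caput samples. Such genes passed the filter on low counts through the testis alone, so the number of them called between these tissues is no result. The 6 highest in the testis were *Adam3* (cyritestin) at 578 ± 26.4 RPKM, *Adam5* at 540 ± 29.3, *Adam32* at 291 ± 9.75, *Adam2* (fertilin beta) at 225 ± 11.04, *Adam18* at 75.6 ± 0.899 and *Adam24* (testase 1) at 56.6 ± 4.88 RPKM. ADAM2 and ADAM3 are sperm surface proteins needed for binding the egg coat and for passage through the oviduct. *Adam3* and *Adam5* did not differ beyond their spread, while *Adam32* and *Adam2* each stood clear of their neighbours in the order. The lowest germ-cell member was *Adam26b* at 6.06 ± 1.12 RPKM. In the WT caput the same 6 genes were between 0.122 and 1.68 RPKM. *Adam21*, at 19.9 ± 0.431 RPKM in the testis, had the highest IS mean of the germ-cell genes outside the sperm surface list, 0.0735 ± 0.0738 RPKM. That mean rests on 0, 1, 3, 4 and 1 counts, too few to rank it.

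The other roles were placed in between. When the WT testis was set against the average of both WT segments by edgeR's quasi-likelihood test, genes were called at an adjusted p below 0.01 and over 2-fold. Of the 16402 genes tested 69.2% were called, 38.1% higher and 31.1% lower in the testis. Of the 54 members tested 46 were called, 28 higher and 18 lower. The 28 include the 19 germ-cell members, many of which passed the filter through the testis alone, so these totals are given without weight. Of the 21 ADAMTS and ADAMTS-like genes tested, 5 were called higher and 11 lower. *Adam10*, a ubiquitous sheddase of Notch and many other proteins, was the highest of the 8 widely expressed proteolytic ADAMs at 53.5 ± 1.65 RPKM in the IS, 47.4 ± 2.05 in the caput and 8.05 ± 0.759 in the testis. *Adamts1*, which cleaves versican, led the hyalectanases in the IS at 4.18 ± 1.46 RPKM, and *Adamts9* led them in the caput at 3.70 ± 0.250 RPKM. *Adamts5*, the main aggrecanase of mouse cartilage, led them in the testis at 1.13 ± 0.0552 RPKM. *Adam11*, a protease-dead neural ADAM, was 4.84 ± 0.134 RPKM in the testis, 0.629 ± 0.067 RPKM in the IS and 0.773 ± 0.154 RPKM in the caput. *Adamts17* was 2.36 ± 0.0522 RPKM in the testis against 0.0457 ± 0.0309 in the IS, and *Adamts10*, a fibrillin-associated protease, was 2.99 ± 0.323 RPKM in the caput against 0.711 ± 0.0342 in the testis. *Adamts7*, which cleaves cartilage oligomeric matrix protein, was 1.00 ± 0.379 RPKM in the testis and 0.291 ± 0.0402 in the IS, and *Adamts3*, a procollagen N-proteinase, was 0.600 ± 0.0643 RPKM in the testis. *Adamtsl4* led the ADAMTS-like genes in the IS with 3.85 ± 0.478 RPKM, and *Adamtsl5* led them in the testis with 0.728 ± 0.0554 RPKM. *Adamts13*, the protease of von Willebrand factor, and *Adamts18* were at 0 counts in every WT IS sample and were tested in no comparison.

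Between the WT segments, 17 of 54 members tested were called, 11 higher in the caput and 6 higher in the IS, where 20.7% of 16402 genes were called (11.4% and 9.24% by direction). *Adam28* fell by 5.51 ± 0.84 (log2, SE) from IS to caput (adjusted p = 0.00015, edgeR quasi-likelihood with Benjamini-Hochberg adjustment), *Adamdec1* fell by 4.18 ± 0.21 and *Adamtsl3* fell by 5.57 ± 0.21. *Adam7* was not called between the segments (-0.11 ± 0.071, adjusted p = 0.16 by edgeR). Of the 11 genes higher in the caput, 8 were germ-cell ADAMs, which entered this fit through their testis counts and rest on few epididymal ones, such as 1 and 17 counts over the 5 IS and 5 caput samples for *Adam24*. Their number is therefore given without weight. *Adam18* had the largest difference among those with separated groups, 3.03 ± 0.26, from 11 counts over the 5 IS samples to 99 over the 5 caput samples. All 20 genes of a late spermatid and sperm RNA list were also positive in this contrast, with a median log2 difference of 2.30, and 16 were called. The part of sperm RNA in the caput level of these ADAMs was not tested.

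Between genotypes, *Adam7* was higher in the ArKI IS. The WT IS samples held 15990, 15440, 15370, 15480 and 16010 CPM and the ArKI IS samples 23420, 23660, 19760, 21120 and 21110 CPM. The groups did not overlap. The difference was 0.48 ± 0.051 on the log2 scale, or 1.39-fold (adjusted p = 7.5e-07, edgeR quasi-likelihood), below the 2-fold limit for a call. *Adam7* thereby took 2.06–2.33% of all counts in the ArKI IS against 1.53–1.57% in the WT IS. In the caput, the WT samples held 12580, 14240, 14680, 15820 and 14280 CPM and the ArKI samples 15910, 12810, 18270, 16860 and 15610 CPM. The groups overlapped, and the difference was 0.15 ± 0.083 (adjusted p = 0.20, edgeR). The caput effect minus the IS effect was -0.33 ± 0.10 (adjusted p = 0.032, edgeR), which misses the limit of 0.01. In the testis *Adam7* had 23, 26 and 32 counts in WT and 19, 25 and 27 counts in ArKI samples, and the difference of -0.48 ± 0.26 did not pass (adjusted p = 0.44, edgeR). The 7 IS principal-cell markers, most of them secreted proteins, summed to 33600–39200 CPM in the ArKI IS and 41800–45700 CPM in the WT IS. Of these, 3 had a positive sign, and 4 were lower and 1 higher at an adjusted p below 0.05. The 6 caput principal-cell markers summed to 37500–60700 CPM in the ArKI IS and 43100–51500 CPM in the WT IS. Of these, 2 had a positive sign, and 1 was lower and 0 higher at that limit. The part of principal-cell RNA in the *Adam7* values was not tested.

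**Figure D2:**
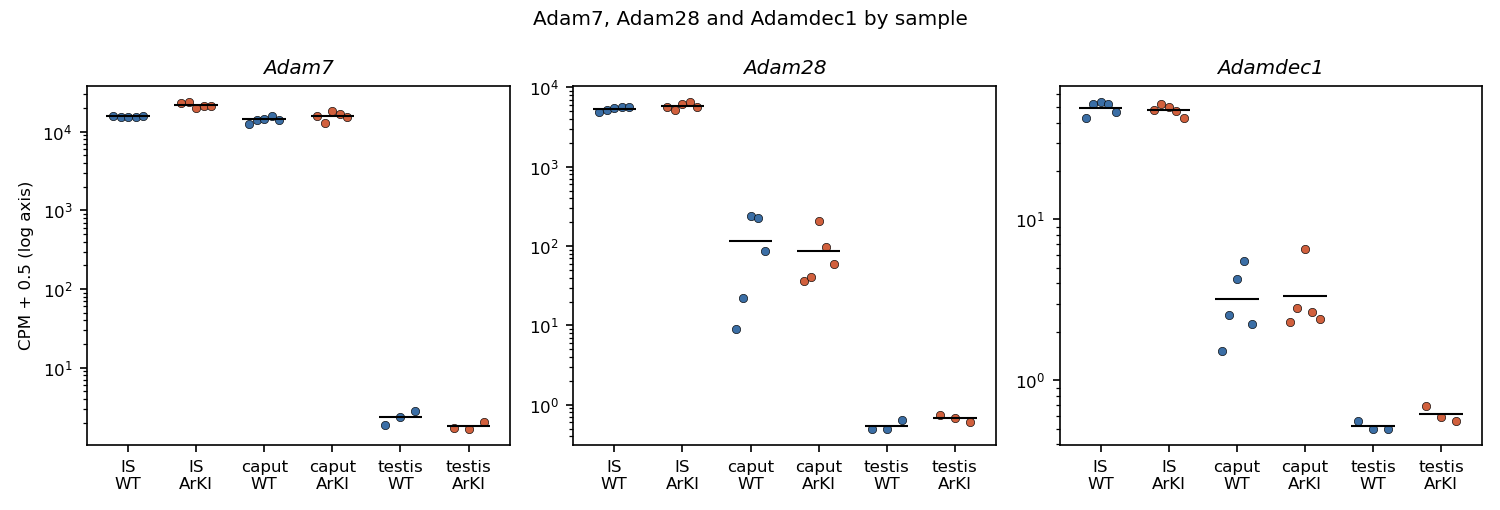
CPM plus 0.5 of *Adam7*, *Adam28* and *Adamdec1* in each sample on log axes, with blue points for WT and orange points for ArKI samples and a line at the group mean. All 5 ArKI IS samples of *Adam7* (19760 to 23660 CPM) lie above all WT IS samples, while *Adam28* spreads from 8.60 to 236.8 CPM among the WT caput samples.

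*Adam28* passed the test in neither segment. In the IS it was 4826, 5123, 5450, 5568 and 5587 CPM in WT and 5664, 5180, 6219, 6452 and 5563 CPM in ArKI samples. The groups overlapped (0.13 ± 0.059, adjusted p = 0.11, edgeR). In the caput it was 8.60, 21.8, 236.8, 227.1 and 85 CPM in WT and 35.5, 40.4, 203.1, 96.5 and 59.2 CPM in ArKI samples, so WT samples differed more from each other than the genotypes did (-0.38 ± 0.90, adjusted p = 0.81, edgeR), and the sign of this difference turned in 3 alternatives. The samples high in *Adam28* were high in the IS marker *Lcn8*, a secreted lipocalin, which was 42.7, 125.2, 1077, 1147 and 199.2 CPM in the same order of WT caput samples and 28.3, 69.0, 374.7, 165.7 and 52.1 CPM in the ArKI samples. The part of IS tissue in these caput values was not tested. *Adam28* had 0, 0 and 2 counts in the WT testis and 4, 4 and 2 in the ArKI testis.

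*Adamdec1* held 42.1, 51.3, 52.9, 51.5 and 45.8 CPM in the WT IS and 47.5, 51.9, 49.5, 46.5 and 42.2 CPM in the ArKI IS. These ranges overlapped (-0.04 ± 0.071, adjusted p = 0.75, edgeR). In the caput it spanned 1.02–4.99 CPM in WT and 1.81–6.09 CPM in ArKI samples (0.13 ± 0.48, adjusted p = 0.88, edgeR), and its sign turned in 2 alternatives. It had 1, 0 and 0 counts in the WT testis and 3, 2 and 1 in the ArKI testis. In the IS, where *Adam7* had an adjusted p below 0.05, neither neighbour did. *Adam28* was also positive there, with an unadjusted p below 0.05 in edgeR, and the effects of these genes were not tested against each other.

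In the testis, no member was called at an adjusted p below 0.2 and over 2-fold, where 0.833% of 15838 genes were (0.751% higher and 0.0821% lower). edgeR, limma-voom and DESeq2 each called 0 of the 51 members tested, of which 9 had an unadjusted p below 0.05 in edgeR, where 13.1% of all genes had. All 19 germ-cell ADAMs passed the filter on low counts, with a median log2 difference of 0.01 against -0.00233 over all genes, and none had an unadjusted p below 0.05. *Adam3* had 1323, 1417 and 1401 CPM in WT and 1296, 1428 and 1461 CPM in ArKI testes (0.02 ± 0.061). *Adam5*, *Adam32*, *Adam2*, *Adam18* and *Adam24* lay between -0.04 and 0.05 with standard errors of 0.058 to 0.077. At an adjusted p below 0.05 alone were 1.96% of all genes, 1.64% higher and 0.328% lower, and 1 member, *Adamts5* (0.47 ± 0.12, adjusted p = 0.036, edgeR quasi-likelihood), whose difference stayed under 2-fold.

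In the caput, germ-cell ADAM RNA was scarce, and 6 of the 19 germ-cell members passed the filter. These 6 are those with the most counts, so their shares say nothing of the 13 others. *Adam5* had 43, 34, 56, 47 and 33 counts in WT and 10, 6, 21, 22 and 15 counts in ArKI samples. It fell by 1.64 ± 0.23 (adjusted p = 3.7e-05, edgeR), and its groups were separate. *Adam32* had 34, 15, 20, 17 and 24 counts in WT against 0, 0, 7, 4 and 8 counts in ArKI samples and fell by 2.62 ± 0.43 (adjusted p = 0.00019, edgeR). Sperm RNA fell with them. Of the 20 genes of the sperm RNA list 19 were tested, 18 were called lower, and their median difference was -2.61. The summed level of the list was 394–594 CPM in WT and 110–189 CPM in ArKI caput samples. How much of the fall of *Adam5* and *Adam32* follows the amount of sperm RNA was not tested.

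*Adam3* and *Adam18* did not pass the test in the caput. *Adam3* had 48, 42, 51, 48 and 45 counts in the WT caput and 36, 16, 28, 74 and 43 counts in the ArKI caput, and the groups overlapped (-0.37 ± 0.21, adjusted p = 0.22, edgeR). *Adam18* had 22, 21, 21, 17 and 18 counts in WT and 25, 15, 23, 33 and 28 in ArKI samples (0.24 ± 0.20, adjusted p = 0.44, edgeR). ArKI replicate 2, with the lowest count of both genes, is also the shallowest sample, at 3.69 and 3.46 CPM. Set against the summed counts of the sperm RNA list, *Adam3* made up 10.03–14.1 counts per 1000 sperm-list counts in the WT caput, 20.6–37.6 in the ArKI caput, and 37.2–40.6 in the WT testis. *Adam18* made up 4.13–5.78 in the WT caput, 13.4–31.4 in the ArKI caput and 3.81–4.44 in the WT testis, so the ArKI caput lay above both. The same ratio of *Adam5* overlapped between WT and ArKI caput, at 8.18–13.8 and 7.18–15.6, and was 36.95–39.9 in the WT testis. *Adam1a* was separated like *Adam3*, at 9.44–15.5 in the WT and 21.8–48.0 in the ArKI caput, and *Adam32* overlapped at 3.93–8.63 and 0–5.19. A gene whose counts fall less than those of the list has a higher ratio by construction, so these ratios describe small counts and were given no test. *Adam4* and *Adam1a*, the other members that passed, gave -0.13 ± 0.37 and -0.19 ± 0.16. *Adam1a* shares 77.8% of its 50-base stretches with transcripts of other genes, mainly those of the overlapping *Gm42878* and *Mapkapk5*, so its epididymal counts cannot be assigned to it alone.

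**Figure D3:**
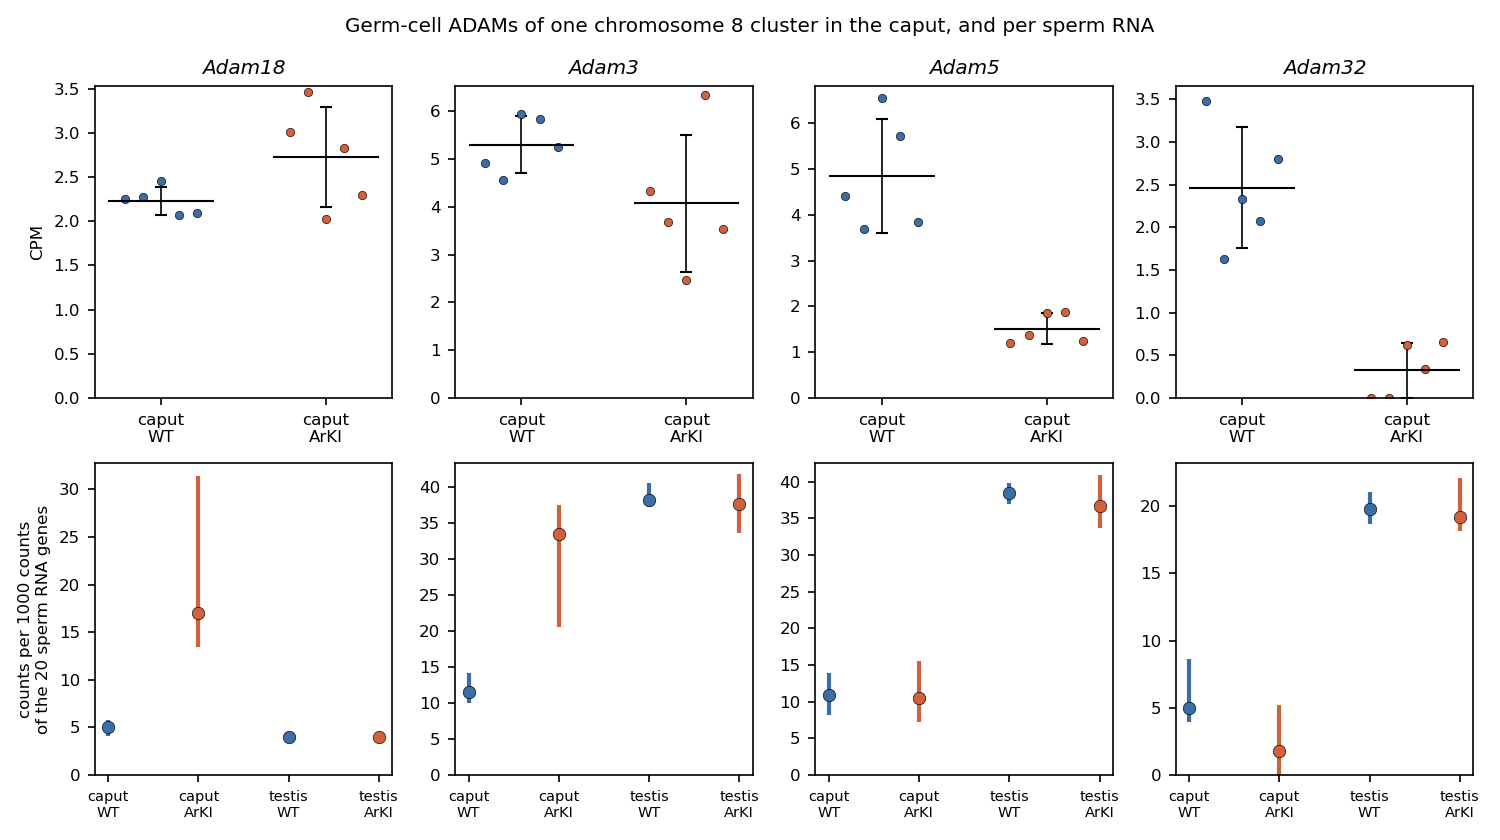
Upper row, CPM of 4 germ-cell ADAM genes in each caput sample (points), with the mean (line) and SD (bar), n = 5 per genotype. Lower row, counts of the gene per 1000 counts of the 20 sperm RNA genes, with the median sample (point) and the lowest and highest sample (bar). *Adam5* and *Adam32* are separated by genotype in CPM, whereas *Adam3* and *Adam18* are separated per count of sperm RNA, which itself fell, at 10.03–14.1 against 20.6–37.6 for *Adam3*.

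The proportion of *Adam3* to *Adam5* counts differed among the groups. Over all samples of a group, *Adam3* had 61414 counts and *Adam5* 61017 in the WT testis, and 76343 and 75009 in the ArKI testis. In the WT caput the sums were 234 and 213. In the ArKI caput they were 197 and 74, so the near-equal proportion of the testis was not kept there. In the WT IS the sums were 70 and 84, and in the ArKI IS 5 and 45. *Adam18*, *Adam3*, *Adam5* and *Adam32* lie in this order in one cluster on the minus strand of chromosome 8 (GRCm38), at 24602246 to 24674755, 24677225 to 24725852, 24727093 to 24824369 and 24836140 to 24948804, followed by *Adam9* at 24949611 to 25016927. *Adam18* and *Adam3*, which did not pass the test in the caput, are thus adjacent, as are *Adam5* and *Adam32*, which fell. Genes unlike in this test are adjacent too, namely *Adam3* and *Adam5*, and *Adam32* and *Adam9*. *Adam9*, a broadly expressed sheddase, was at 78.8–88.1 CPM in the WT and 81.5–88.7 CPM in the ArKI caput (adjusted p = 0.97, edgeR). *Adam2*, on chromosome 14, had 14, 6, 11, 9 and 4 counts in the WT caput and 2, 0, 0, 1 and 4 in the ArKI caput and did not pass the filter.

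*Adam3* was called for a difference between the effects in the segments, on few IS counts. In the IS it had 13, 4, 19, 3 and 31 counts in WT samples and 1, 1, 0, 1 and 2 in ArKI samples, and every WT sample was above every ArKI sample. It did not pass the filter of the IS comparison and entered the fit of both segments through its caput counts. In the fit of all 20 epididymal samples, the caput effect minus the IS effect was 3.07 ± 0.75 (adjusted p = 0.0063, edgeR quasi-likelihood), a value that rests on an ArKI IS group of 5 counts. The call was lost in 12 of 28 alternatives, among them limma-voom, the replicate block and each omission of an ArKI IS sample, with adjusted p up to 0.045. The sperm RNA list summed to 89.3–185 CPM in the WT IS and 68.6–92.6 CPM in the ArKI IS. Of its 6 genes tested there, 3 were called lower (1.32% of all genes). At an adjusted p below 0.05, 4 were lower and 1 higher, with a median of -1.64. In the contrast between segments, 13 of 19 tested genes of the list were positive, with a median of 0.93, while 3 were lower and 0 higher at an adjusted p below 0.05. The part of sperm RNA in the *Adam3* values was not tested. Of the 39 members tested for this difference 5 were called, against 8.18% of 14329 genes, 3 with a positive difference (3.95% of all genes) and 2 with a negative one (4.23%).

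Over all roles, germ-cell members included, 3 members were called between the genotypes in the IS and 4 in the caput. These are larger shares of those tested than over all genes, on small numbers of members. In the IS, 3 of 31 members tested were called, against 4.04% of 13434 genes, 2 higher (2.72% of all genes) and 1 lower (1.32%). The count was 5 without ArKI IS replicate 2, 2 without ArKI IS replicate 5 or WT IS replicate 1, 2 or 4, and 6 without the filter on low counts. The median log2 difference of the members was 0.03, against -4.41e-05 over all genes. At an adjusted p below 0.05 alone, 8 members were higher and 7 lower in the IS, against 15.0% and 14.6% of all genes (29.6% together). In the caput, 4 of 38 members tested were called, against 4.98% of 13726 genes, 1 higher (2.43%) and 3 lower (2.55%), and 7 were called without that filter. Their median was 0.00, against 0.00168. At an adjusted p below 0.05 alone, 8 were higher and 8 lower, against 13.7% and 14.0% of all genes (27.7% together).

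**Figure D4:**
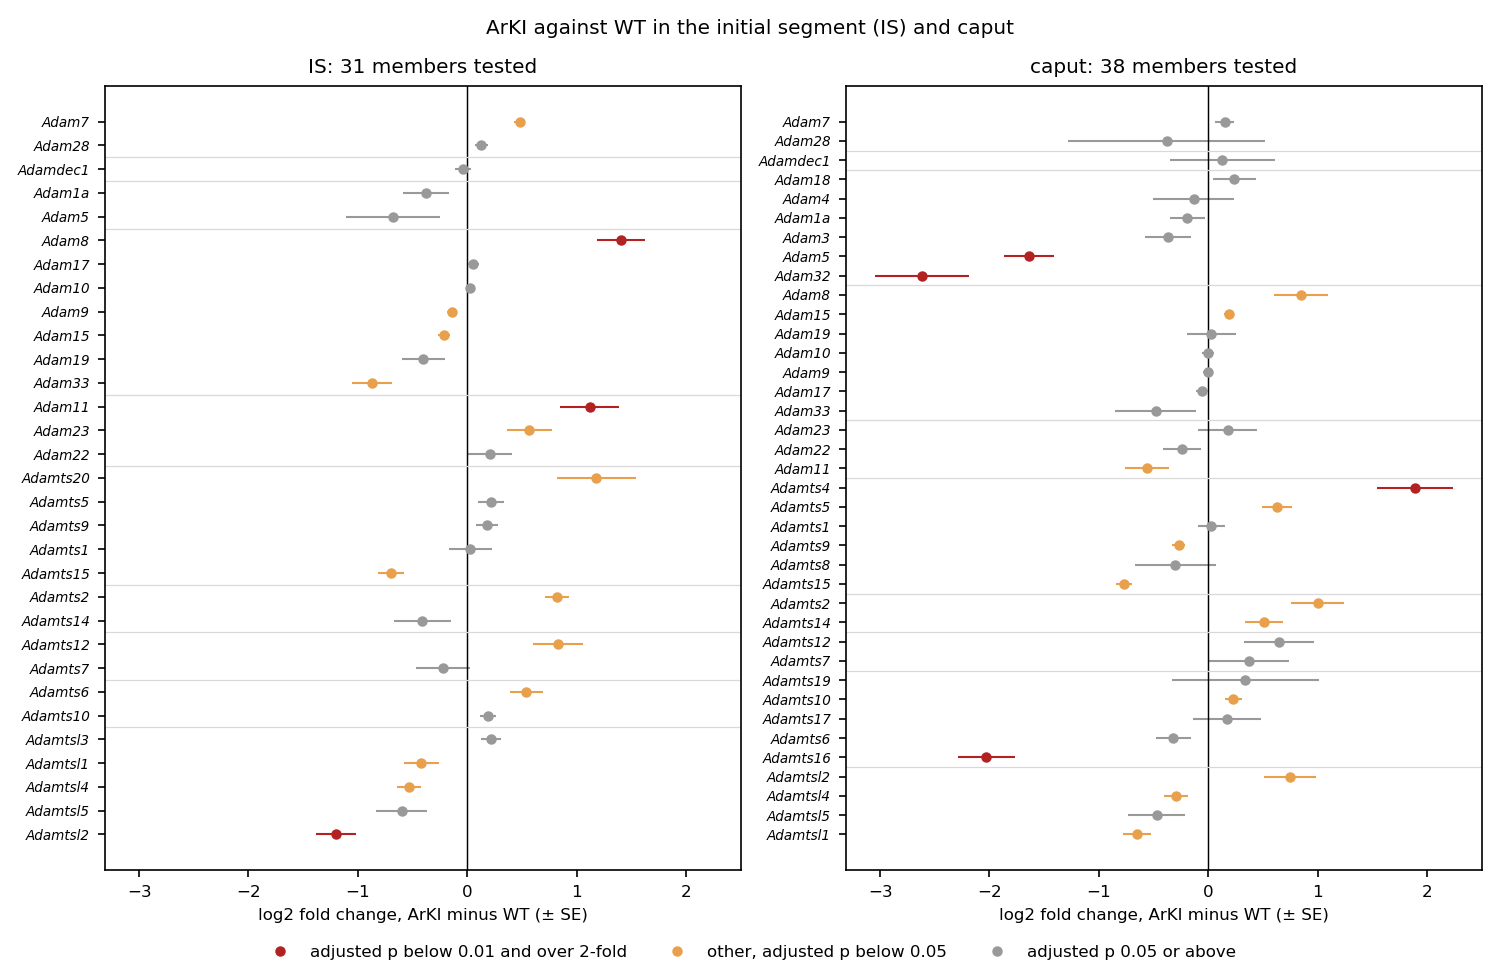
Log2 fold change of ArKI minus WT with its SE for the 31 members tested in the IS and the 38 tested in the caput, by role, red where called, orange where only the adjusted p is below 0.05, grey otherwise. The called members are *Adam8*, *Adam11* and *Adamtsl2* in the IS and *Adam5*, *Adam32*, *Adamts4* and *Adamts16* in the caput.

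*Adam8*, an active ADAM of leukocytes and inflamed tissue, rose in the IS. It had 13, 32, 34, 26 and 23 counts in WT and 59, 46, 69, 61 and 57 counts in ArKI samples. All ArKI samples were above all WT samples, and the difference was 1.41 ± 0.22 (2.65-fold, adjusted p = 9.1e-05, edgeR). In the caput it was 0.85 ± 0.25 (adjusted p = 0.018, edgeR) and in the testis -0.21 ± 0.14. The leukocyte markers went the other way in the IS: the sum of 6 macrophage and leukocyte genes was 175–245 CPM in WT and 151–211 CPM in ArKI samples, with 3 genes lower and 0 higher at an adjusted p below 0.05. In the caput they went the same way as *Adam8*, with a sum of 93.7–121 CPM in WT and 117–186 CPM in ArKI samples and all 6 positive, 1 of them at an adjusted p below 0.05. Their part in the *Adam8* values was not tested. Of 6 T and B cell genes, 2 were tested in the IS and neither passed an unadjusted p below 0.05. Exons of *Adam8* overlap those of *Gm16201* on the opposite strand, though 0 of its 4906 50-base stretches were shared with other genes. Whether counting used the strand is not given in the sources used here.

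*Adam11* was higher in the ArKI IS, with 27, 36, 30, 27 and 42 counts in WT and 40, 34, 104, 48 and 76 counts in ArKI samples. Scaled by depth the groups were separate, at 3.27–4.38 and 4.80–15.02 CPM, with ArKI replicate 3 highest, and the difference was 1.12 ± 0.27 (2.17-fold, adjusted p = 0.0066, edgeR). The call was lost in 9 of 18 alternatives, with adjusted p up to 0.021, among them each omission of a WT sample. In the caput the difference was -0.56 ± 0.20 (adjusted p = 0.05, edgeR). The effects differed between segments by -1.68 ± 0.35 (adjusted p = 0.0016, edgeR), a call lost in 1 of 28 alternatives, the replicate block within genotype (adjusted p = 0.012).

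*Adamtsl2*, a protein that binds fibrillin and LTBP1 in microfibrils, fell in the IS. It had 57, 85, 57, 41 and 86 counts in WT and 27, 23, 17, 25 and 29 in ArKI samples. The groups were separate, and it fell by 1.20 ± 0.18 (adjusted p = 6.1e-05, edgeR). In the caput it had 24, 11, 20, 19 and 22 counts in WT and 29, 25, 44, 33 and 39 in ArKI samples, 0.75 ± 0.24 (adjusted p = 0.025, edgeR). The effects in the segments differed by 1.94 ± 0.30 (adjusted p = 5.8e-05, edgeR). The ADAMTS-like genes as a list had 5 tested in the IS, of which 3 were lower and 0 higher at an adjusted p below 0.05, with a median of -0.53, where 14.6% of all genes were lower at that limit. Markers of smooth muscle and endothelium were also lower in the ArKI IS. The smooth muscle sum was 3420–3650 CPM in WT and 2860–3400 in ArKI samples, with 4 of 5 genes lower, and the endothelial sum was 103–125 and 70.4–86.6 CPM, with 4 of 4 lower at an adjusted p below 0.05. In the caput the endothelial sum was 41.2–45.9 CPM in WT and 49.3–74.5 CPM in ArKI samples, while the smooth muscle sums overlapped at 735–1040 and 600–1340 CPM. Between segments, 4 of 4 endothelial and 4 of 5 smooth muscle genes were positive, of which 3 and 1 were called. The part of these cells in the *Adamtsl2* values was not tested.

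Promoter sequences were at hand for *Adam8* and *Adamtsl2*, the called genes that moved in opposite directions in the IS, and are shown because the altered factor is a DNA-binding receptor. The 250 bases before the start are from RefSeq (GRCm38.p6), for *Adam8* chr7:139992563-139992812 on the minus strand and for *Adamtsl2* chr2:27079129-27079378 on the plus strand. Capitals mark matches on either strand to TATAAA, the TATA box, or to AGAACA, the core hexamer bound by the androgen receptor.
Adam8: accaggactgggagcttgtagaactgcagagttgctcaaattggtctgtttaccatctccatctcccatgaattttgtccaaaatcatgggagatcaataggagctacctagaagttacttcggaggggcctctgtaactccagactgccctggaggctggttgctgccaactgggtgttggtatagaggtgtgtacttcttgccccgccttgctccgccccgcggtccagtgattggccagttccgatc
Adamtsl2: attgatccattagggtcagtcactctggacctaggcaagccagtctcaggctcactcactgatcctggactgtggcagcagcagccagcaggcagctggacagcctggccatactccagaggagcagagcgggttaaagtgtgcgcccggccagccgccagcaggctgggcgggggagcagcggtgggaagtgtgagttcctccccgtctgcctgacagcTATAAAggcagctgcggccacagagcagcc
The *Adamtsl2* promoter held a TATA match starting 30 bases before the start, and 12.9% of 27025 promoters of this length held such a match. AGAACA or its complement TGTTCT was in neither, and in 16.2% of all promoters and 3 of the 30 members with a promoter entry. *Adam11*, *Adam5*, *Adam32*, *Adamts4* and *Adamts16* have no entry.

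In the caput, *Adamts16*, a secreted protease linked to blood pressure and gonad development, had 34, 44, 23, 22 and 28 counts in WT and 7, 5, 9, 11 and 7 counts in ArKI samples. The groups were separate, and it fell by 2.03 ± 0.26 (4.07-fold, adjusted p = 1.5e-05, edgeR). In the IS it had 8, 9, 8, 13 and 13 counts in WT and 1, 2, 0, 1 and 0 counts in ArKI samples, which are also separate, but it did not pass the filter there. *Adamts4*, an aggrecanase, rose in the caput. It had 2, 5, 6, 6 and 4 counts in WT and 18, 7, 16, 35 and 18 counts in ArKI samples (1.89 ± 0.35, adjusted p = 0.00061, edgeR). These are low counts.

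**Figure D5:**
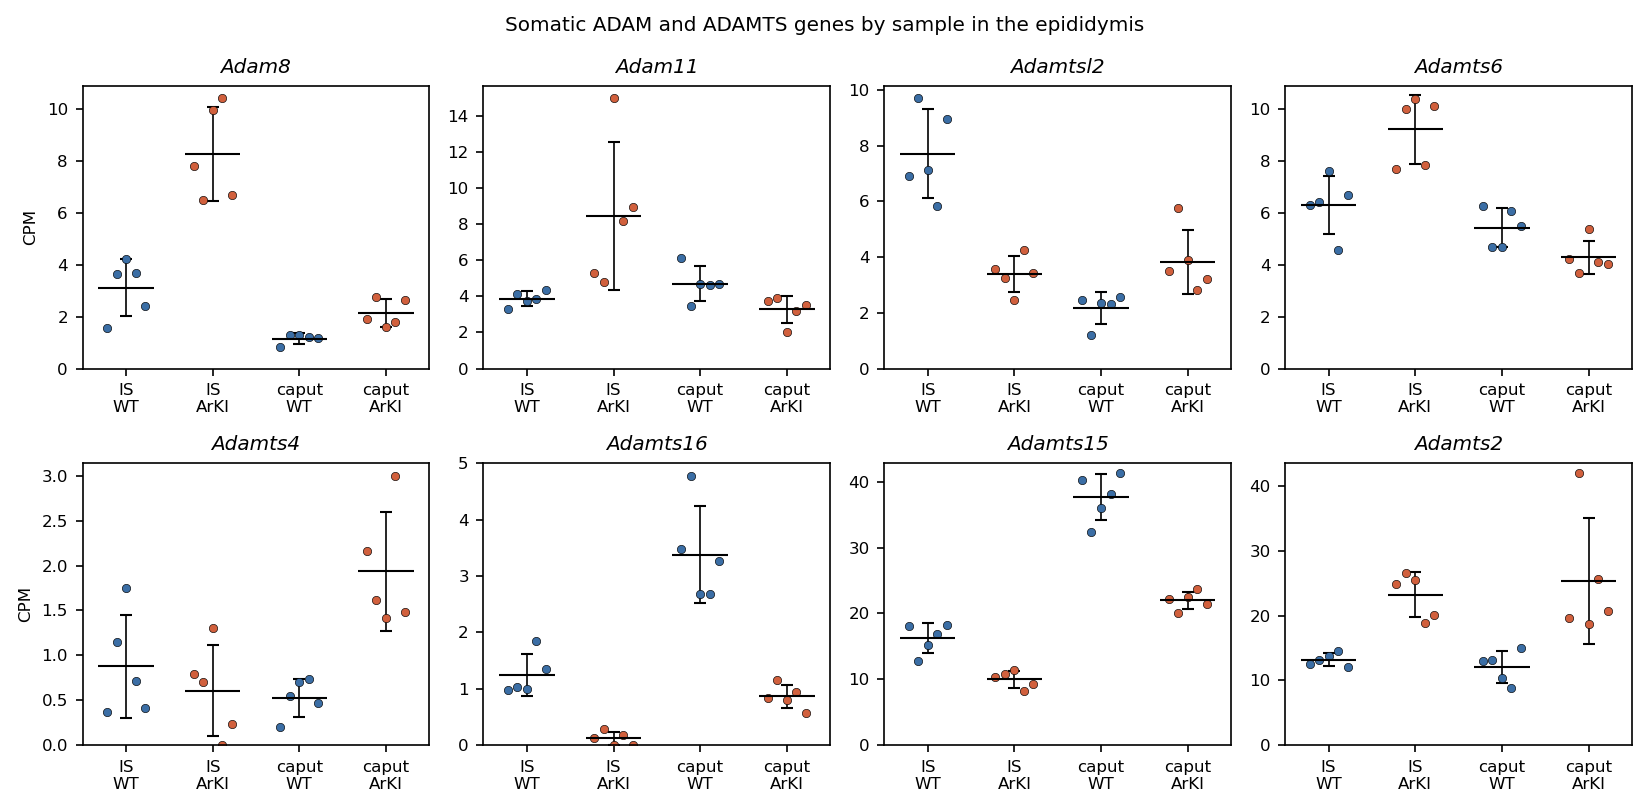
CPM of 8 somatic ADAM and ADAMTS genes in each epididymal sample (points), with the group mean (line) and SD (bar), n = 5 per group. *Adamts15* is lower and *Adamts2* higher in all ArKI samples than in all WT samples of the same segment, and *Adamtsl2* moves in opposite directions in the segments.

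Smaller differences were seen in several matrix proteases. *Adamts15*, a versican-cleaving hyalectanase, was 12.8–18.3 CPM in the WT and 8.20–11.4 CPM in the ArKI IS (-0.70 ± 0.12, adjusted p = 0.0002, edgeR). In the caput it was 32.4–41.3 and 20.1–23.7 CPM (-0.77 ± 0.075, adjusted p = 7.9e-07, edgeR). It was lower in 10 of 10 ArKI epididymal samples than in any WT sample of the segment. *Adamts2*, the procollagen I N-proteinase, was 12.1–14.5 CPM in WT and 18.8–26.5 CPM in ArKI IS samples (0.82 ± 0.11, adjusted p = 7.7e-06, edgeR). In the caput the ranges were 8.76–15.04 and 18.7–42.0 CPM (1.00 ± 0.24, adjusted p = 0.012, edgeR). Of 6 fibroblast markers, 4 were higher and 1 lower in the IS and 1 was higher in the caput at an adjusted p below 0.05, with a sum of 1170–1320 CPM in the WT and 1290–1670 CPM in the ArKI IS, and 815–950 and 951–2340 CPM in the caput. In the shallow ArKI caput replicate 2, *Adamts2* and *Col1a1* both had their highest value, 42.0 and 700.6 CPM. The part of fibroblast RNA was not tested.

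*Adamts6*, a secreted protease needed for heart development, was 4.55–7.61 CPM in the WT and 7.70–10.4 CPM in the ArKI IS (0.54 ± 0.15, adjusted p = 0.0098, edgeR), and its caput difference was -0.32 ± 0.16. The segments differed by -0.87 ± 0.21 (adjusted p = 0.0057, edgeR), a call lost in 10 of 28 alternatives. *Adam15*, a sheddase of epithelium and endothelium, was 114.8–123.3 CPM in the WT and 93.4–113.6 in the ArKI IS, and 86.4–94.7 and 98.9–109.2 CPM in the caput. Its effects of -0.21 ± 0.055 and 0.19 ± 0.047 differed by 0.39 ± 0.072 (adjusted p = 0.00043, edgeR), and 15.4% of its 50-base stretches are shared with other genes, mainly the antisense *4731419I09Rik*. Several marker lists went from lower in the ArKI IS to a positive difference between segments: 4 of 4 endothelial, 6 of 6 leukocyte, 3 of 3 basal cell and 4 of 5 smooth muscle genes were positive, of which 3, 2, 1 and 1 were called. Their part in the *Adam15* values was not tested. *Adam33* was 5.24–6.52 CPM in the WT IS and 2.22–4.09 in the ArKI IS (-0.87 ± 0.18, adjusted p = 0.00084, edgeR). *Adam10* passed no test in either segment, at 0.03 ± 0.043 in the IS (adjusted p = 0.61, edgeR) and 0.00 ± 0.052 in the caput (adjusted p = 0.97, edgeR).

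Other matrix genes differed in one segment or in both without a call. *Adamts12*, a protease that cleaves cartilage oligomeric matrix protein, was 1.12–1.83 CPM in the WT and 2.31–2.82 CPM in the ArKI IS, where the groups were separate (0.83 ± 0.23, adjusted p = 0.0093, edgeR). *Adamts20*, a versican-cleaving protease of melanoblast development, had 4, 11, 14, 5 and 8 counts in WT and 13, 9, 26, 18 and 16 counts in ArKI IS samples, which overlap. Its difference was 2.26-fold, but the adjusted p of 0.017 in edgeR missed the limit. *Adamts5* was 8.46–10.3 CPM in the WT and 11.5–22.4 CPM in the ArKI caput (0.63 ± 0.14, adjusted p = 0.0031, edgeR), with the shallow ArKI replicate 2 again highest at 22.4 CPM, and the part of fibroblast RNA was not tested here either. *Adamtsl4*, which binds fibrillin fibres of the eye, was lower in the IS, at 15.04–19.97 CPM in WT and 10.3–13.3 CPM in ArKI samples (-0.53 ± 0.11, adjusted p = 0.0012, edgeR), and gave -0.29 ± 0.11 in the caput (adjusted p = 0.05, edgeR). *Adamtsl1* was lower in the caput, at 9.86–12.3 and 5.83–9.46 CPM (-0.65 ± 0.13, adjusted p = 0.0011, edgeR), and gave -0.42 ± 0.16 in the IS (adjusted p = 0.05, edgeR).

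The genes that mature, partner with or restrain these proteases were taken from 8 lists. Of 15 genes for sperm ADAM maturation, 8 were tested in the caput, 2 were called lower, where 2.55% of all genes were, and all 8 had a negative sign. The sperm RNA list fell in the same samples, with 18 of 19 tested genes called lower and a median of -2.61, and its part in these values was not tested. *Clgn*, the calmegin chaperone needed to assemble fertilin, had 34, 18, 25, 19 and 16 counts in WT and 6, 0, 3, 6 and 12 in ArKI caput samples (-2.15 ± 0.37, adjusted p = 0.00031, edgeR). *Cmtm2a* had 29, 13, 15, 22 and 15 against 1, 0, 3, 4 and 3 counts (-3.14 ± 0.40, adjusted p = 1.4e-05, edgeR). Both are testis genes, at 744.0–824.3 and 603.8–708.6 CPM in the testis samples, where neither was called. The 15 genes were all tested in the testis and 0 were called there by edgeR, with 2 at an unadjusted p below 0.05. Of the proprotein convertases, which cut the prodomain off ADAMs, *Pcsk5* fell in the IS from 405.7–424.6 CPM in WT to 166.4–202.9 CPM in ArKI samples (-1.16 ± 0.05, adjusted p = 1.5e-12, edgeR), while *Furin*, the main activator of ADAM10 and ADAM17, gave -0.37 ± 0.06 (adjusted p = 0.00012, edgeR). In the caput *Pcsk6* rose from 1.13–2.80 to 3.95–6.23 CPM (1.28 ± 0.24, adjusted p = 0.00054, edgeR).

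Among 5 metalloprotease inhibitors, *Timp1*, which inhibits ADAM10, was called higher in the caput and in the testis. In the caput it was 6.55–8.40 CPM in WT and 18.2–25.4 CPM in ArKI samples (1.48 ± 0.12, adjusted p = 6.2e-08, edgeR). Marker sums of the WT and ArKI caput were 815–950 and 951–2340 CPM for fibroblasts and 93.7–121 and 117–186 CPM for leukocytes. They were 41.2–45.9 and 49.3–74.5 CPM for endothelium and 735–1040 and 600–1340 CPM for smooth muscle. Their part in the caput *Timp1* values was not tested. In the testis *Timp1* had 11, 21 and 17 counts in WT and 64, 62 and 43 in ArKI samples (1.49 ± 0.27, adjusted p = 0.0024, edgeR). Somatic marker sums were also higher in the ArKI testis, at 608–801 CPM in WT and 923–996 CPM in ArKI samples for Leydig cells, 124–142 and 165–175 CPM for fibroblasts, and 39.8–44.8 and 49.7–53.2 CPM for leukocytes, and their part in the *Timp1* and *Adamts5* values of the testis was not tested. *Timp3*, the inhibitor of ADAM17 and the aggrecanases, was lower in both segments without passing 2-fold (-0.92 ± 0.08 in the IS, adjusted p = 7.4e-07, and -0.63 ± 0.071 in the caput, adjusted p = 4.6e-06, edgeR). Of the 8 genes that partner ADAM10 and ADAM17 (iRhoms and TspanC8 tetraspanins), 7 were tested in each segment and 0 were called in an ArKI against WT comparison, with 2 in the IS and 3 in the caput at an unadjusted p below 0.05, where 39.7% and 37.7% of all genes were. None was called either of the 3 tested EGF receptor ligand genes, of the genes of 3 proteins found in a complex with ADAM7 in sperm (*Calr*, *Hspa5* and *Itm2b*), or of the 5 tested ADAMTS substrate genes, in either segment. At an unadjusted p below 0.05 these gave 0, 0 and 4 genes in the IS and 1, 3 and 3 in the caput, against the same shares of all genes. At an adjusted p below 0.05, the RNAs of all 3 ADAM7 complex genes were lower in the caput, where 14.0% of all genes were. The differences were -0.29 for *Calr*, -0.26 for *Hspa5* and -0.35 for *Itm2b*. Of the ADAMTS substrate genes, 3 were higher and 1 lower in the IS at that limit, where 15.0% and 14.6% of all genes were. Of the lumicrine genes that act on ADAM3, the receptor *Ros1* was 0.36 ± 0.055 higher (adjusted p = 0.00011, edgeR) in the ArKI caput and the protease *Ovch2* gave -0.52 ± 0.053 in the ArKI IS (adjusted p = 3.9e-07, edgeR), both under 2-fold. In the ArKI caput *Ovch2* gave -1.14 ± 0.38, over 2-fold, but did not pass (adjusted p = 0.059, edgeR). The groups overlapped, at 82.8–252.3 CPM in WT and 51.0–109.7 CPM in ArKI samples.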

How the data were processed

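The authors aligned single-end reads to mm10 with STAR, counted uniquely mapped reads on RefSeq genes with Subread 1.5.1 and deposited the raw counts per gene, without filter or scaling, in 2 tables for the 26 samples. The labels name a kit that does not mark the strand and the study's methods a stranded one, and whether counting used the strand is not given in the sources used here, so reads of opposite-strand neighbours may not be told apart.

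From the deposited counts, the ArKI and WT samples of 1 tissue at a time were compared in edgeR 4.0.16 (R 4.3.3). The filter was filterByExpr (count of 10, total of 15), the scaling TMM and the test the robust quasi-likelihood F-test, with p-values adjusted over all genes tested (Benjamini-Hochberg). Calls needed an adjusted p below 0.01 in the epididymis or 0.2 in the testis and a change over 2-fold, as the study's methods set. The difference between segments was fitted over the 20 epididymal samples at 0.01 without a fold limit, and WT tissues over the 13 WT samples. The study's ROTS test was not run. Alternatives were limma 3.58.1 (voom), DESeq2 1.42.0, other scalings, filters and thresholds, the replicate number as a block, and leaving out each sample. The fits were also run on simulated counts of genes that pass the filter, with seeded changes well above 2-fold only, which do not bear on smaller differences. CPM used TMM library sizes, and RPKM divided CPM by the union exon length of GENCODE M21. Shared 50-base stretches were counted on both strands of all GENCODE transcripts. Near-copies (*Adam6a* and *Adam6b*, *Adam26a* and *Adam26b*, *Adam25* and *Adam39*, *Adam1a* and *Adam1b*) share 29.5–77.8% with other genes and are uncertain. No 2 libraries agreed within sampling noise. At the depths given, 3 counts, taken as the floor, are 0.14–0.727 CPM, a limit that covers counting error only.

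The members and gene lists were chosen with earlier results of these data known. Named were *Adam7*, *Adam28*, *Adamdec1*, all members called between genotypes or segments' effects, the highest member of each role per tissue, the 6 highest germ-cell ADAMs of the testis and called genes of the pathway lists. Others, among them *Adam9*, *Adam33*, *Adamts12*, *Adamts15*, *Adamts20*, *Adamtsl1*, *Adamtsl3*, *Timp3*, *Furin* and *Ros1*, were named after their values were seen. Figures were drawn with matplotlib 3.10.9.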

Additional observations from a re-analysis of the deposited data

Results flagged for a closer look

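The 174 groups of 5 samples with more than 3 counts in a sample, over all 57 members, were searched for a sample apart from the others by Dixon's ratio (gap over range of log2 CPM plus 0.5), and 15 were found where chance gives about 8.7. In the shallow ArKI caput replicate 2, *Adamts19* was 7.15 CPM against 0.530–1.15 CPM in the others (ratio 0.764), *Adamts8* 2.77 CPM against 0.576–0.971 CPM (ratio 0.718) and *Adamts14* 8.07 CPM against 5.03–5.66 CPM (ratio 0.756). *Adam9* was 88.7 CPM in ArKI caput replicate 3 against 81.5–81.8 CPM (ratio 0.957). In the WT IS, *Adam9* was 121.6 CPM in replicate 1 against 130.9–134.1 CPM (ratio 0.754), *Adam1a* 2.25 CPM in replicate 3 against 3.66–4.17 CPM (ratio 0.781), and *Adamts8* 1.15 CPM in replicate 5 against 2.13–2.62 CPM (ratio 0.734). *Adam6a* had 4 counts in WT IS replicate 3 and 0 in the others (ratio 1.0). In the ArKI IS, *Adam10* was 312.9 CPM in replicate 2 against 282.6–289.9 CPM in the others (ratio 0.751). *Adam18* had 5 counts in ArKI IS replicate 5 and 0 in the others (ratio 1.0). *Adamtsl5* was 3.06 CPM in the same sample against 1.73–1.98 CPM (ratio 0.773). In the WT caput, replicate 1 was low for *Adam8* at 0.819 CPM (ratio 0.749), and replicate 2 for *Adamtsl2* at 1.19 CPM (ratio 0.855). *Adamts10* was 21.5 CPM in WT caput replicate 5 against 26.9–28.5 CPM (ratio 0.8). *Adamdec1* was 6.09 CPM in ArKI caput replicate 3 (ratio 0.812).

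The effect of the ArKI allele differed between the segments for 5 members by edgeR's interaction test. The caput effect minus the IS effect was -1.68 for *Adam11*, 0.39 for *Adam15*, 3.07 for *Adam3*, -0.87 for *Adamts6* and 1.94 for *Adamtsl2*, and no explanation of these was tested. Of these, *Adam3*, with 5 counts over the ArKI IS group, lost its call in 12 of 28 alternatives, *Adamts6* in 10 and *Adam11* in 1.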

How the results depend on the processing

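With each sample left out in turn, the members called numbered 2–5 in the IS, 4–4 in the caput, 0–1 in the testis, 3–6 for the difference between segments, 14–18 between WT segments and 46–47 between WT testis and epididymis. The IS count was 5 without ArKI IS replicate 2, the testis count 1 without WT testis replicate 1, and the count for the difference between segments 3 without ArKI IS replicate 2, WT caput replicate 1 or ArKI caput replicate 1. Without a filter on low counts, 6 were called in the IS and 7 in the caput, and 6 in the IS in a fit of all epididymal samples. Without the fold limit, 11 were called in the IS, 9 in the caput, 3 in the testis and 26 between WT segments. At an adjusted p below 0.05, 9 members differed between segments. The causes were not tested. Whether a replicate number marks a mouse is not stated. Deviations of same-numbered samples correlated by -0.095 to 0.20 between WT and ArKI IS, -0.19 to 0.20 between WT and ArKI caput, -0.0048 to 0.056 between WT and ArKI testis, -0.012 to 0.19 between IS and caput of WT (3 of 5 highest with their own number) and -0.15 to 0.21 between IS and caput of ArKI (2 of 5), so not every pair was above 0.1 and the numbers were not taken as pairs. With the replicate block, 4, 4, 0, 5, 15 and 47 members were called in the order above, and the *Adam3* difference between segments (3.01, adjusted p = 0.013, edgeR) lost its call. With the replicate block within each genotype, chosen after seeing the data, 4 members were called for the difference between segments. *Adam3* (2.95, adjusted p = 0.0086) was called, while *Adam11* (-1.66, adjusted p = 0.012) and *Adamts6* (-0.87, adjusted p = 0.013) were not. With the block over the WT IS and caput alone, also chosen after seeing the data, 12 were called between WT segments. The other scalings and tools kept every count of members called within 1.5 times.

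With 1 sample left out, *Adamdec1* ranged from -0.08 to 0.01 in the IS (0.01 without ArKI replicate 5) and from -0.41 to 0.46 in the caput (-0.09 without WT replicate 1, -0.41 without ArKI replicate 3). *Adam28* in the caput was 0.33 in limma-voom and ranged from -0.96 to 0.06 with 1 sample left out (0.06 without WT replicate 3, 0.02 without WT replicate 4). For *Adam28*, the call between WT testis and epididymis was lost in limma-voom (adjusted p = 0.053). Low counts limit the germ-cell genes in the epididymis.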
